A study of Homo sapiens with 156 samples.

Results

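GSK862 at 1000 nM was compared directly with GSK032 at 400 nM after 2 and 4 days in MV411, THP1 and NOMO1, which are established human acute myeloid leukemia cell lines. In the labels these compounds are GSK3484862 and GSK3685032, inhibitors of the DNA methyltransferase DNMT1. The comparison takes 24 of the 156 RNA-seq libraries of the series, 8 in each line: 2 libraries with each compound on each day, so 4 with GSK862 against 4 with GSK032. Libraries of DMSO-treated cells from the same days gave the background, and GSK032 at 80, 2000 and 10000 nM on day 4 was set beside the pair. The lines came from cell banks, the labels state no engineered allele in any group, and cells were seeded 24 h before compound or DMSO was added. The doses of this pair do not match, so each difference below is between 2 treatments and not between the compounds at equal dose, and 1 compound pair was compared in each of the 3 lines. The labels number the replicates but do not state separate cultures. The p-values therefore measure spread among these libraries, and it may be technical.

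DNMT1 copies methyl groups onto the new DNA strand after replication, guided to hemimethylated sites by UHRF1, so its inhibition lets methylation be lost as cells divide. Genes that are normally read only in germ cells, among them the cancer-testis genes of the X chromosome, are kept silent in most other cells by methylated promoters and are known to be switched on when methylation is lost. Loss of methylation is also known to let endogenous retroviral sequences be transcribed, and their double-stranded RNA can set off the interferon response, in which genes such as IFI27 and IFIT1 are induced.

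The myeloid genes PTPRC, CD33 and SPI1 were at 37.7 to 59.1, 62.5 to 93.9 and 69.9 to 108 FPKM (fragments per kilobase of transcript, scaled to library depth) in the 12 libraries of MV411 that were treated with DMSO, GSK032 400 nM or GSK862 on these days. They were also read in THP1 and NOMO1, where CD33 was at 40.3 to 58.9 and 38.5 to 45.8 FPKM. Of the other myeloid markers in MV411, CD14 did not pass 0.873 FPKM and MPO ran from 2.45 to 106. CD68 was there at 16.45 to 81.45, LYZ at 677 to 3789, CSF1R at 13.45 to 36.11 and KMT2A at 8.15 to 26.85. Of markers of other cell types, HBB was at 0 in all of these libraries of the 3 lines and CD3E did not pass 0.163 FPKM. CD3D, also of the T cell receptor complex, was at 4.52 to 34.2 FPKM in NOMO1, where the keratin KRT18 was at 24.4 to 39 FPKM. The summed FPKM of the 13 epithelial markers in NOMO1 was 49.4 to 78.7 with GSK862, 50.1 to 71.5 with GSK032 and 33.7 to 43 with DMSO, and their part in the results was not tested. The step between low FPKM values gave an estimated 40.9 to 95.9 M fragments per library. The summed FPKM of a library was higher in the 2 MV411 day 4 libraries with GSK862 (1653 and 1735 in units of 1000 FPKM) than in those with GSK032 (1331 and 1572), and where MV411 day 4 calls change when libraries are scaled to equal FPKM sums, both are given.

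In MV411, 8 genes were lower with GSK862 than with GSK032 and none was higher. This was 0.0447% of the 17911 genes tested (limma on log2(FPKM + 0.5) with day as covariate, Benjamini-Hochberg adjusted p below 0.05). None of 16446 genes was called in NOMO1 (0%), nor any of 19169 in THP1 (0%). At an unadjusted p below 0.05, MV411 had 2095 genes (11.7% of those tested), THP1 had 2668 (13.9%) and NOMO1 had 426 (2.59%). The 8 genes were DAZL, PAGE2B, CT45A3, TUBA3D, RBMY1A1, RHOXF2, TDRD9 and AC022784.1. The first 7 are protein-coding genes known from the male germ line, and AC022784.1 is a long non-coding RNA gene that lies outside the rule for named genes, with a log2 difference of -0.88.

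The promoters of 4 of these genes are shown, with that of PAGE5 from the genes that answered GSK032 on other days, because methylation of CG pairs is what DNMT1 maintains. Each line holds the 250 bases before a RefSeq start site (GRCh38.p14), 5′ to 3′ on the gene's strand, with CG pairs in capitals. No methylation was measured in these libraries.
DAZL promoter, chr3:16605424-16605673, minus strand: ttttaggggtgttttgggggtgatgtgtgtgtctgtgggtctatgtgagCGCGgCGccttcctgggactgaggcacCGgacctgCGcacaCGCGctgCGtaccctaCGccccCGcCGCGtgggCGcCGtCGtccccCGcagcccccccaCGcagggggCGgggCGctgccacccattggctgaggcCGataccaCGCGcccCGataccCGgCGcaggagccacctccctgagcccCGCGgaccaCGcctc
PAGE2B promoter, chrX:55074780-55075029, plus strand: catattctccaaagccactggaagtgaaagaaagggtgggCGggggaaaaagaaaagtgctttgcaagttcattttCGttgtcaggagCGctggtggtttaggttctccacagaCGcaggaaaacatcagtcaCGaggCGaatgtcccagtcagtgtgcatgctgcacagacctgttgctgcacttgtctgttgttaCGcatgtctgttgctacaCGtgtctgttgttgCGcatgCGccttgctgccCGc
TUBA3D promoter, chr2:131475869-131476118, plus strand: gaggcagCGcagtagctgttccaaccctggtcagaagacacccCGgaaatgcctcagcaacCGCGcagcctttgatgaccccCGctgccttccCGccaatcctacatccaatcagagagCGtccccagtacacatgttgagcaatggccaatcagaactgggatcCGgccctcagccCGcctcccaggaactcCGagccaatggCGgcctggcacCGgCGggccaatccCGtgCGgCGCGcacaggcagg
RHOXF2 promoter, chrX:120158363-120158612, plus strand: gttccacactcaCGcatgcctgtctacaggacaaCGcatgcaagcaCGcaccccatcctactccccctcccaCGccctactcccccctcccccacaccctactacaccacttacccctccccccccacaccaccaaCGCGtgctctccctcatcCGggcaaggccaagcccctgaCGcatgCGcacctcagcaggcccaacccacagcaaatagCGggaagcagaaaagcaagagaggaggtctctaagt
PAGE5 promoter, chrX:55220096-55220345, plus strand: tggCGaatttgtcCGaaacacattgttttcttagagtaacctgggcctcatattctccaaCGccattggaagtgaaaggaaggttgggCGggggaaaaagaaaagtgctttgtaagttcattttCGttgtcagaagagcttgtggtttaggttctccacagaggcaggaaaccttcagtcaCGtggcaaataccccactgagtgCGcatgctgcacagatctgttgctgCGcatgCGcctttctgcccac
The DAZL promoter shown held 28 CG pairs, and 84.1% of the 35114 RefSeq promoters of this length held fewer. At a second RefSeq start of DAZL the window held 23 (74.2% held fewer). RBMY1A1, not shown, had 19, TUBA3D 17, PAGE2B 11, RHOXF2 10 and PAGE5 9, against a median of 11 and quartiles of 3 and 23 over all promoters. Promoters of CT45A3 were not matched.

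DAZL, an RNA-binding protein of germ cells, showed the largest difference of the 8. It lies at chr3:16586792-16670306 on the minus strand (hg38). On day 2 in MV411 it was at 0 and 0.00891 FPKM with DMSO, 3.58 and 3.37 with GSK032, and 1.159 and 1.07 with GSK862. On day 4 the values were 0.0538 and 0.00771 with DMSO, 22.1 and 18.4 with GSK032, and 4.66 and 5.23 with GSK862. Each GSK862 library was above DMSO and below each GSK032 library of its day, without overlap. In such bulk samples, fewer cells that express a gene and less RNA per cell cannot be told apart. The direct difference was -1.61 on the log2(FPKM + 0.5) scale (95% interval -1.95 to -1.27, standard error 0.14, adjusted p = 0.0343).

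PAGE2B, a cancer-testis gene at chrX:55075063-55078909, was at 4.08 and 4.61 FPKM with GSK032 and 1.54 and 1.84 with GSK862 on day 2. On day 4 it was at 36.8 and 33.4 with GSK032 and 16.6 and 17.4 with GSK862. The 2 treatments did not overlap on either day, and the direct difference was -1.09 (interval -1.26 to -0.91, adjusted p = 0.0199). CT45A3, a cancer-testis gene at chrX:135759846-135768191, was at 9.06 and 10.2 with GSK032 and 4.35 and 4.56 with GSK862 on day 4, a direct difference of -1.01 (adjusted p = 0.0199). TUBA3D, a testis alpha-tubulin at chr2:131476093-131482934, was at 6.05 and 5.85 with GSK032 and 3.01 and 3.11 with GSK862 on day 4. Its direct difference was -0.995.

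RBMY1A1, an RNA-binding protein of spermatogenesis, was at 19.7 and 19.0 FPKM with GSK032 and 8.91 and 10.7 with GSK862 on day 4. Its direct difference was -0.94. RHOXF2, a homeobox gene of the germ line at chrX:120158561-120165630, was at 8.56 and 8.45 with GSK032 and 4.16 and 4.21 with GSK862 on day 2, and at 24.5 and 20.3 against 12.8 and 13.8 on day 4. Its direct difference was -0.83 (interval -1.02 to -0.65). TDRD9, a helicase that acts with piRNAs against transposons and lies at chr14:103928462-104052667, was at 15.7 and 14.9 with GSK032 and 9.70 and 9.31 with GSK862 on day 4, a difference of -0.63. For these 7 genes the lowest GSK032 library stood above the highest GSK862 library of the same day.

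PAGE2B, CT45A3, TUBA3D, RBMY1A1 and RHOXF2 have near-identical copies, between which the quantification may have split reads. The 8 calls were close to the threshold: 0 of 8 remained when any 1 of the 8 libraries was left out, while all 8 stayed lower in each of these fits. With equal FPKM sums 3 genes were called lower.

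**Figure D1:**
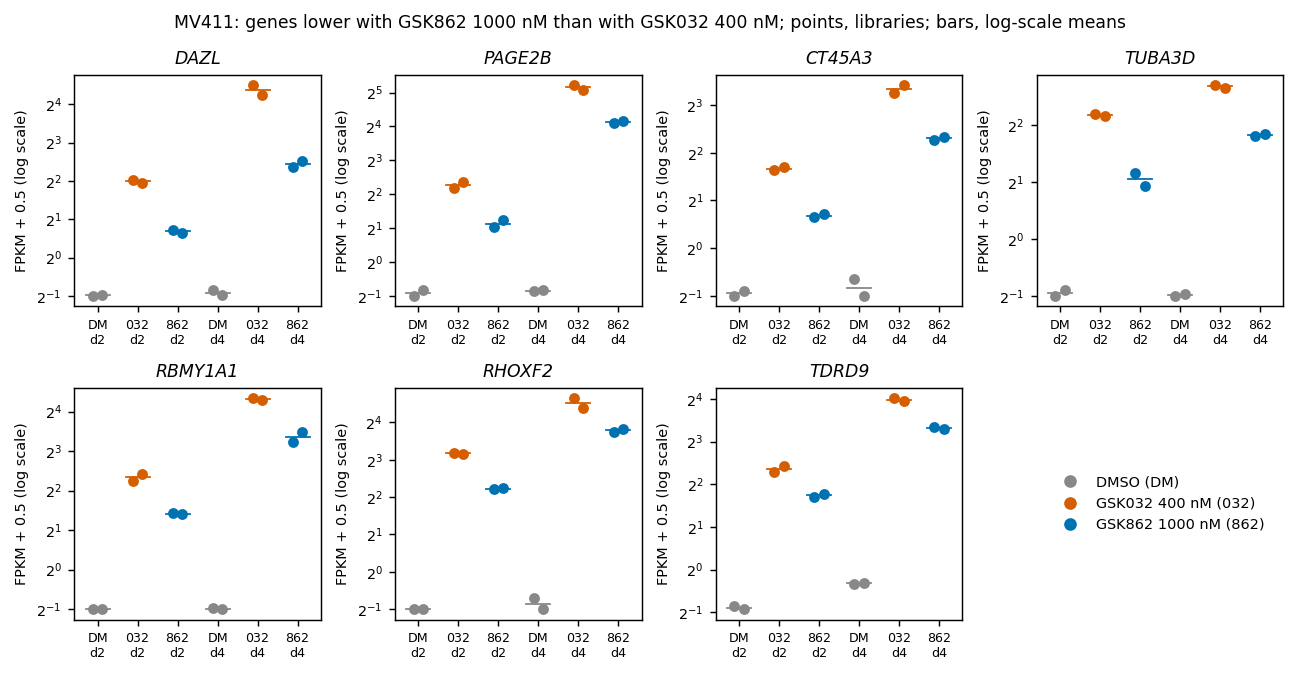
FPKM + 0.5 on a log scale in MV411 for the 7 named genes called lower with GSK862, with DMSO, GSK032 400 nM and GSK862 1000 nM on days 2 and 4. Points are libraries and bars are log-scale means of 2 libraries. For DAZL on day 4, GSK862 stands at 4.66 and 5.23 FPKM between DMSO and the GSK032 libraries at 22.1 and 18.4.

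The germline list holds 42 genes, 28 of which passed the filter in MV411. Of these 28, 3 were lower (DAZL, RHOXF2 and TDRD9), beside 0.0447% of all genes, none was higher, and 27 had a difference below 0. The median of the 28 was -0.51, beside 0.02 over all genes tested. The filter asks for 1 FPKM in at least 2 of the 8 libraries. A silent gene can therefore pass through its GSK032 libraries alone, which can favor differences below 0. A second fit with 1 mean for each of the 26 groups of a line (52 libraries, 26 residual degrees of freedom) gave each day apart. In it, 34 members were tested; 5 were lower on day 2 (DAZL, CTAG2, MAEL, MAGEA3 and MAGEC2) and 9 on day 4, and none was higher on either day. The background of genes lower in MV411 was 0.105% on day 2 and 1.26% on day 4. Without replicate 1 of GSK032, or without 1 of the GSK862 libraries, 5 members were lower on day 4.

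Among the 9, CTAG2, which encodes the antigen LAGE-1, was at 7.18 and 5.94 FPKM with GSK032 and 3.00 and 2.37 with GSK862 on day 4, a difference of -1.15 (adjusted p = 0.00394). MAGEC2, an X-linked melanoma antigen, was at 4.26 and 2.93 with GSK032 and 1.22 and 1.303 with GSK862, a difference of -1.196. PAGE2 was at 27.5 and 28.9 against 10.5 and 12.7, a difference of -1.25. The other 25 members did not pass the test, with differences from -0.72 for RHOXF2 to 0.21 for PAGE1. MAGEA4 was among those near 0, with a day 4 difference of -0.05 (interval -0.52 to 0.42), with 158 and 139 FPKM under GSK032 and 147 and 138 under GSK862. With all libraries scaled to equal FPKM sums, 17 of 35 members tested were lower on day 4, with a median of -0.71. Over all genes 400 of 22417 were then lower, with a median of -0.17. With median-ratio scaling 15 of 35 were lower, with a median of -0.55, beside 364 of 22460 genes and a median of -0.01. Less the median of all genes, the list median was -0.51 unscaled and -0.54 with either scaling.

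GSK862 was given at 1 dose on day 4, and its levels of DAZL, PAGE2B and IFI27 lay within the range that GSK032 spanned over its doses. DAZL in MV411 was at 0.213 and 0.199 FPKM with GSK032 at 80 nM, 71.7 and 49.9 at 2000 nM, and 73.9 and 63.9 at 10000 nM. GSK862 at 1000 nM, with 4.66 and 5.23, stood above the lowest of these doses and below 400 nM. PAGE2B was at 1.25 and 0.846 with GSK032 at 80 nM and 83.1 and 65.8 at 2000 nM, so the same order held. IFI27 was at 1.47 and 1.39 at 80 nM, 486 and 448 at 2000 nM, and 357 and 318 at 10000 nM. Of the 34 germline members, 24 were higher with GSK862 than with GSK032 at 80 nM, and 26 were lower than at 2000 nM, beside 1.73% and 6.47% of all genes tested. Doses differ in each of these comparisons, which also share the GSK862 libraries.

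**Figure D2:**
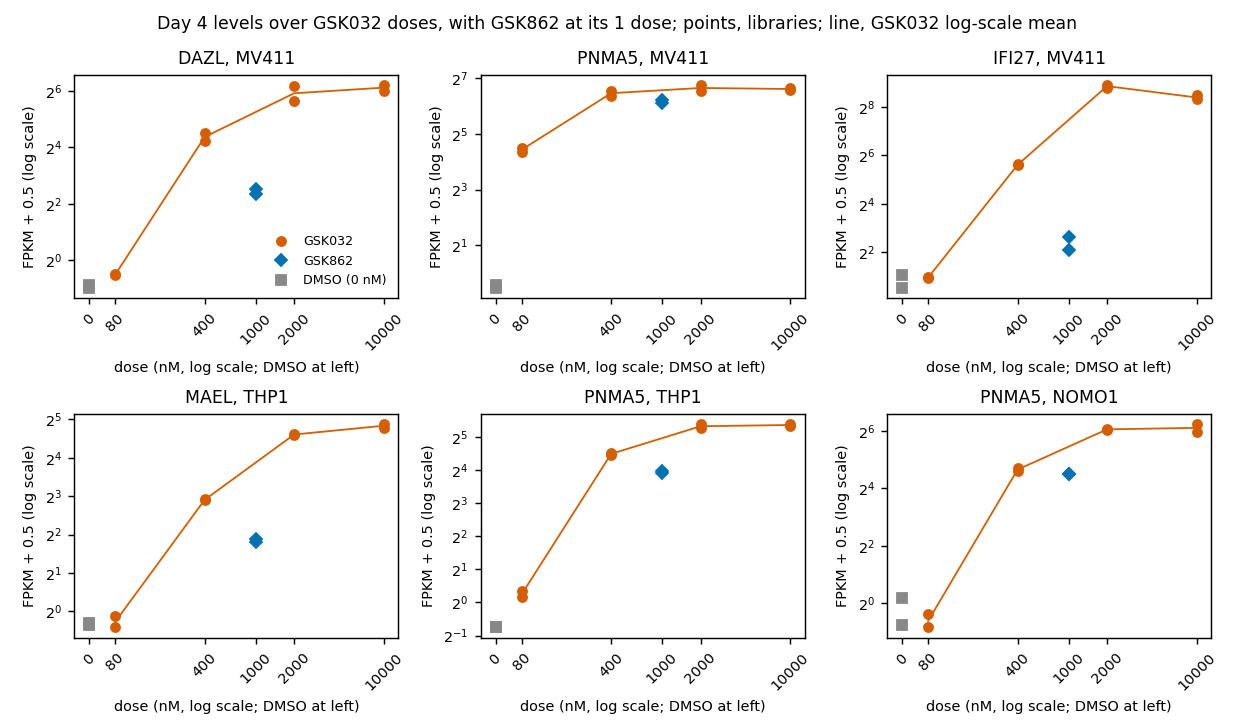
Day 4 levels (FPKM + 0.5, log scale) of DAZL, PNMA5 and IFI27 in MV411, MAEL and PNMA5 in THP1 and PNMA5 in NOMO1 against dose in nM (log scale, with DMSO set at the left edge). Points are libraries and the line joins GSK032 means; in all 6 panels GSK862 lies below GSK032 at 2000 nM.

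Interferon-stimulated genes in MV411 were lower with GSK862 on day 4. Of 43 members tested in the group-means fit, 34 were lower with GSK862 on day 4 and none was higher, beside 1.26% of all genes lower. Their median was -1.08, beside 0.01 over all genes. On day 2, 0 of the 43 were called and the median was -0.05. The direct fit, over both days, called 0 of the 42 members it tested. IFI27, a mitochondrial interferon-induced protein, was at 0.777 and 0.616 FPKM with GSK032 and 1.159 and 0.523 with GSK862 on day 2, where the groups overlapped. On day 4 it was at 48.9 and 48.1 with GSK032, 5.62 and 3.71 with GSK862, and 1.58 and 0.927 with DMSO. The day 4 difference was -3.27 (interval -4.12 to -2.42, adjusted p = 9.31e-06).

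IFIT1, which binds viral RNA that lacks a self cap, was at 6.05 and 6.67 FPKM with GSK032, 0.876 and 0.802 with GSK862, and 2.38 and 1.44 with DMSO on day 4. The GSK862 libraries were thus the lowest of the 3 groups, and the difference between the compounds was -2.36 (adjusted p = 1.25e-07). IFI44 was at 8.64 and 6.58 with GSK032 and 1.196 and 1.25 with GSK862, a difference of -2.22. IFI44L was at 4.09 and 5.32 against 0.695 and 0.560, a difference of -2.20. Against DMSO, over both days, 32 of the 43 were higher and 1 lower with GSK032, and 11 were higher and 7 lower with GSK862. These comparisons share the DMSO libraries. The background was 14.4% higher and 18% lower with GSK032, and 11.4% higher and 12.3% lower with GSK862.

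The change from day 2 to day 4 was itself called for 19 of the 43 interferon genes, all lower, against 0.182% of all genes lower and 0.186% changed in either direction. In THP1 0.00861% of genes were called for this change and in NOMO1 0%, none of them in the interferon list. Leaving out any 1 of the day 4 libraries left 24 to 28 members lower on day 4. Genes of antigen presentation, some of which interferon also induces, showed 0 of 23 members called on either day in MV411, with a day 4 median of -0.09.

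**Figure D3:**
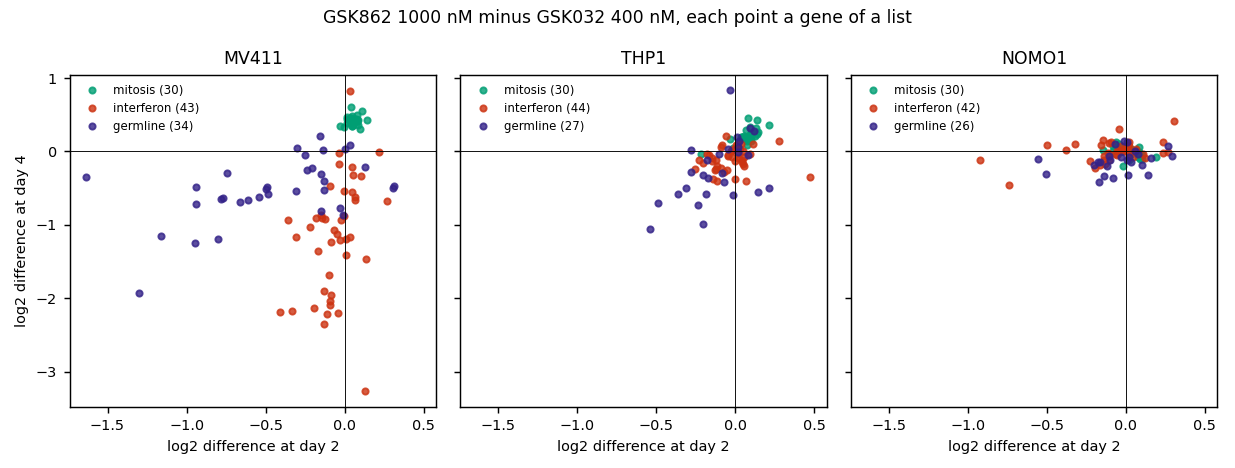
Log2 difference of GSK862 1000 nM minus GSK032 400 nM at day 2 (x) and day 4 (y) for each gene of the mitosis, interferon and germline lists, 1 panel per line. In MV411 the interferon genes spread downward on day 4 with a median of -1.08 while their day 2 median is -0.05.

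Genes of cell division were higher with GSK862 than with GSK032 on day 4 in MV411. Of 30 genes of mitosis 16 were higher and of 30 genes of S phase 11, with none lower, beside 0.591% of all genes higher. CDK1, the kinase that starts mitosis, was at 107 and 98.9 FPKM with DMSO, 37.7 and 40.3 with GSK032 and 51.8 and 56.7 with GSK862 on day 4. Both treatments lay below DMSO and did not overlap each other, with a difference of 0.47 (adjusted p = 0.00596). AURKB, a kinase of chromosome segregation, was at 20.0 and 19.8 with GSK032 and 29.1 and 31.9 with GSK862. CDT1, which licenses replication origins, was at 24.5 and 24.4 against 39.2 and 35.7, a difference of 0.60.

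MCM7, part of the replicative helicase, was at 92.6 and 91.7 FPKM with GSK032 and 134 and 134 with GSK862. On day 2 it was at 272 and 261 against 290 and 271, and the groups met. Over the lists, the median difference of mitosis was 0.05 on day 2 and 0.42 on day 4, and that of S phase 0.09 and 0.48. HIST1H1B, a replication-dependent linker histone, was at 605 and 613 on day 4 with GSK032 and 961 and 943 with GSK862. With all libraries scaled to equal FPKM sums, 0 members of either list were called on day 4, with medians of 0.20 and 0.25, while the median over all genes moved to -0.17. HIST1H1B was then at a difference of 0.42 and not called (adjusted p = 0.182). Without replicate 1 of GSK032 on day 4, 0 genes of mitosis and 1 of S phase remained called; without 1 of the unnumbered GSK862 libraries, 0 and 2.

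Outside these lists, single members stood apart in MV411 on day 4. PHGDH, the first enzyme of serine synthesis, was at 43.7 and 42.2 FPKM with DMSO, 10.2 and 10.4 with GSK032 and 18.8 and 17.6 with GSK862, a difference of 0.80 (adjusted p = 0.0194), which was 0.58 and not called with equal FPKM sums (adjusted p = 0.274). CAMP, the neutrophil peptide cathelicidin, was at 2.50 and 2.41 with GSK032 and 0.692 and 0.822 with GSK862, a difference of -1.24. PEG3, an imprinted gene, was at 8.09 and 8.00 against 4.91 and 5.00, a difference of -0.65 (adjusted p = 0.0376), which was -0.87 and not called with equal FPKM sums (adjusted p = 0.0635). CDCA7, given below for THP1, was higher with GSK862 in MV411 too, by 0.51 (limma, adjusted p = 0.00394). With equal FPKM sums its difference was 0.29 and not called (adjusted p = 0.423). No member of the monocyte, KMT2A target and stem cell, p53 target, apoptosis, heat shock or cholesterol lists was called on day 4 in MV411. Over all genes, 130 were higher and 278 lower on that day (1.85% of 22007), and with equal FPKM sums 12 were higher and 400 lower. Without either GSK862 library or without replicate 1 of GSK032 on day 4 the counts were 66 and 181, 24 and 128, and 25 and 240.

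**Figure D4:**
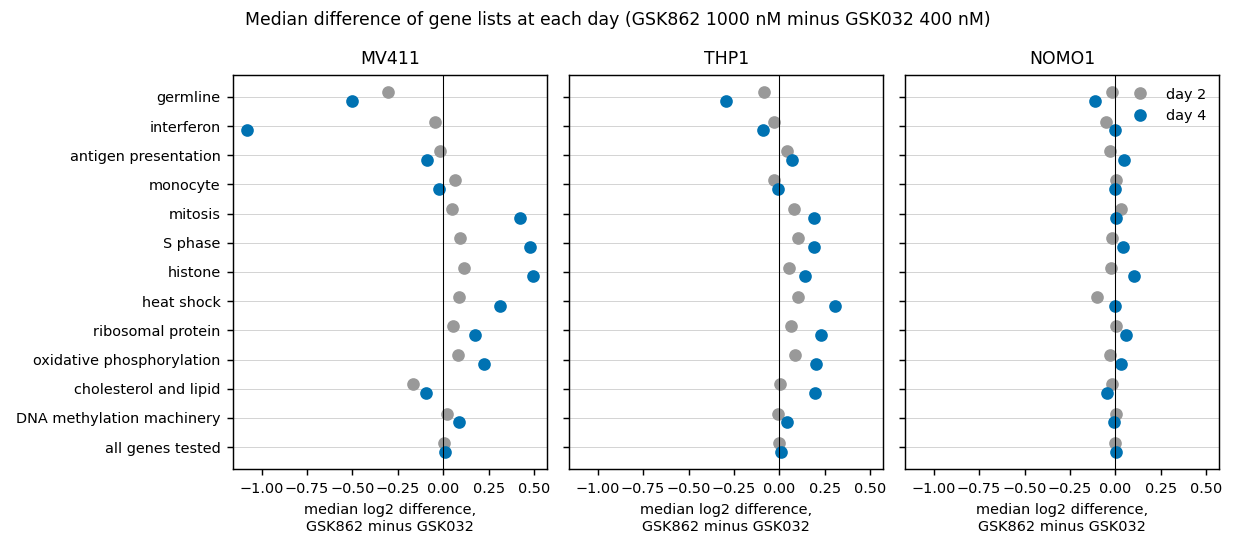
Median log2 difference of GSK862 1000 nM minus GSK032 400 nM for 12 gene lists and all genes tested, day 2 in grey and day 4 in blue, 1 panel per line. In MV411 the day 4 medians run from -1.08 for interferon to 0.49 for histones, and in NOMO1 they lie between -0.11 and 0.10.

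In THP1 the direct fit called no gene, and the group-means fit separated the treatments on day 4, with 522 genes higher and 62 lower with GSK862 (2.25% and 0.267% of 23226). On day 2, 0 genes were higher and 1 was lower (AL591926.7, 0.00431%). Of 27 germline members tested, 5 were lower (MAEL, TDRD9, CTAG2, MAGEB1 and PIWIL2) and 1 was higher (GTSF1) on day 4. MAEL, a piRNA pathway protein of the germ line, was at 0.279 and 0.306 FPKM with DMSO, 7.03 and 6.94 with GSK032 and 3.01 and 3.16 with GSK862, a difference of -1.06 (adjusted p = 0.00813). TDRD9 was at 1.73 and 1.63 against 0.769 and 0.900, a difference of -0.71. GTSF1, another piRNA factor, was at 94.2 and 92.6 with GSK032, 112 and 121 with GSK862, and 137 and 131 with DMSO.

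DAZL in THP1 was low with both compounds on day 4, at 0.459 and 0.256 FPKM with GSK032 and 0.141 and 0.138 with GSK862, and did not pass the filter of the direct fit there. In NOMO1 it was at 0.0835 and 0.142 against 0.324 and 0.057. At 10000 nM GSK032 it was at 17.1 and 20.2 in THP1 and 40.9 and 44.1 in NOMO1.

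Interferon genes in THP1 showed 1 of 44 members lower on day 4, which was MX1, a GTPase that blocks viruses. It was at 6.39 and 5.17 FPKM with DMSO, 18.9 and 20.1 with GSK032 and 14.8 and 15.0 with GSK862, a difference of -0.38 (adjusted p = 0.04), beside 0.267% of all genes lower. It was not called with equal FPKM sums (adjusted p = 0.904) or without any 1 of the 4 day 4 libraries of the pair. IFI27 was at 43.8 and 42.1 with GSK032 and 29.6 and 36.8 with GSK862 in THP1, an uncalled day 4 difference of -0.38 whose interval ran from -1.10 to 0.35. Both treatments stood above DMSO at 1.39 and 1.23.

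Lists of growth and housekeeping genes had members higher with GSK862 in THP1 on day 4. Ribosomal proteins had 7 of 28 members higher, S phase 7 of 30, mitosis 6 of 30, oxidative phosphorylation 5 of 23 and heat shock 4 of 12, with none lower, beside 2.25% of all genes higher. HSPD1, a mitochondrial chaperone, was at 209 and 208 FPKM with GSK032 and 269 and 285 with GSK862, a difference of 0.40 (adjusted p = 0.00458). HSP90AB1, a cytosolic chaperone, was at 337 and 329 against 407 and 426. CDCA7, an activator of the HELLS remodeler that helps to maintain methylation, was at 17.4 and 18.0 against 22.5 and 24.5, a difference of 0.40 (adjusted p = 0.000873). SCD, a fatty acid desaturase, was at 40.3 and 41.1 against 53.6 and 53.3.

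These THP1 calls depended on the scale and on single libraries. With equal FPKM sums 1 gene was higher and 5 were lower on day 4, and no member of these lists was called, although their medians kept their sign. Without replicate 2 of GSK862 on day 4, 33 genes were higher and 8 lower, with 0 germline, 0 mitosis and 0 ribosomal genes among them. Without replicate 2 of GSK032 the counts were 41 and 36, without replicate 1 of GSK862 269 and 24, and without replicate 1 of GSK032 251 and 51.

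In NOMO1 the treatments separated few genes on either day. The group-means fit called 3 genes higher and 2 lower on day 2 (0.0241%) and 1 higher on day 4 (0.00482%). On day 2 these were MRPS30-DT, MIR4664, the HLA pseudogene HLA-Z and identifiers with no symbol, as was the call of day 4. No member of the 32 lists was called. Each compound had moved this line away from DMSO: 3740 genes were called with GSK862 (18%) and 3809 with GSK032 (18.3%), comparisons that share the DMSO libraries. Of the 16446 genes of the direct fit, 14115 (85.8%) had a 95% interval within -1 to 1, so a difference of 1 log2 unit or more was outside the interval of these and not of the other genes. The same share was 83.8% in MV411 and 85.2% in THP1. CDK1 in NOMO1 was at 103 and 107 FPKM with GSK032 and 101 and 98.9 with GSK862 on day 4, and its direct interval ran from -0.12 to 0.12.

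Genes that answered GSK032 on other days were used as a set to compare the lines. The compared libraries did not enter that response, but the filter and spread of the fit took all 52 libraries of a line. A gene entered the set when it was higher with GSK032 400 nM than with DMSO in the mean of days 1 and 6 (adjusted p below 0.05 and a difference of at least 1). The set was thus chosen on GSK032 alone, at the compared dose, and no set was chosen on GSK862. Such a choice can favor genes that GSK032 moves more, and so differences below 0. The set had 692 genes in MV411 (3.14% of those tested), 187 in THP1 (0.805%) and 247 in NOMO1 (1.19%), of which 611, 167 and 222 were in the direct fit. A gene can pass the filter of the direct fit through its GSK032 libraries alone, which can also favor differences below 0. The median direct difference of the genes in that fit was -0.24 in MV411, -0.21 in THP1 and -0.04 in NOMO1. The share with a difference below 0 was 83.8%, 85% and 59%, beside 43.6%, 44.5% and 48.9% of all genes tested. Against DMSO, the medians were 1.07 with GSK862 and 1.31 with GSK032 in MV411, while THP1 had 0.91 and 1.205 and NOMO1 had 1.14 and 1.163.

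Of the genes in this set, 5 were chosen as those with the largest response in the line where it was smallest. PNMA5, a paraneoplastic antigen gene on the X chromosome, was at 92.3 and 82.1 FPKM with GSK032 and 72.6 and 68.0 with GSK862 on day 4 in MV411. In THP1 it was at 22.2 and 21.5 against 15.1 and 14.6, and in NOMO1 at 23.9 and 25.6 against 22.1 and 22.4. GSK862 was the lower in all 3 lines without overlap, with direct differences of -0.54, -0.68 and -0.16, none of which passed the test. ZNF595, a zinc finger gene of chromosome 4, had direct differences of -0.38, -0.63 and -0.14, and PAGE5 of -0.67, -0.49 and -0.41 in the same order. For MAGEA4 they were -0.15, -0.13 and -0.19, and for RHOXF2 -0.83, -0.20 and -0.29, of which the first was called.

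**Figure D5:**
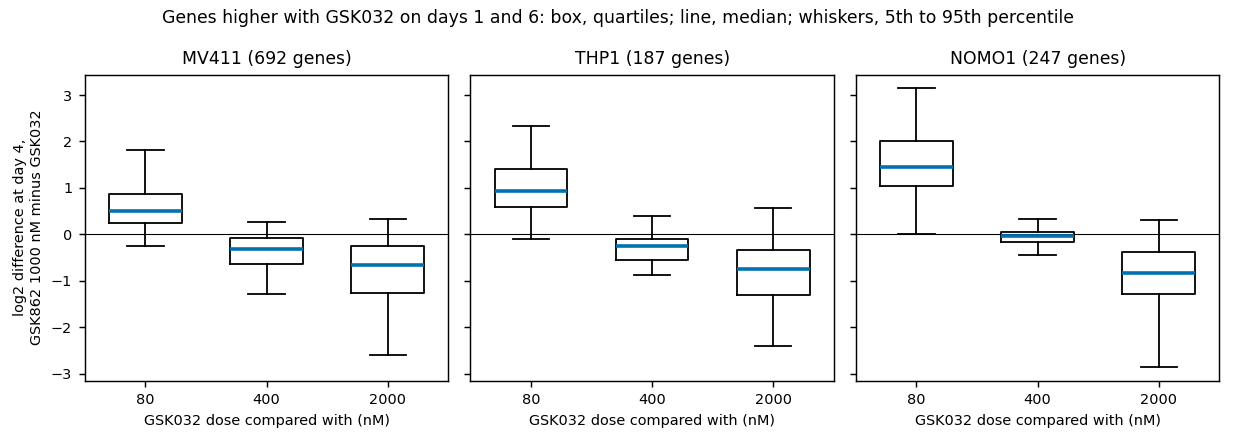
Log2 difference at day 4 of GSK862 1000 nM minus GSK032 at 80, 400 or 2000 nM, 1 panel per line. The genes are those higher with GSK032 in the mean of days 1 and 6. Boxes span the quartiles, lines are medians and whiskers the 5th to 95th percentiles; the medians pass from above 0 at 80 nM (0.51, 0.94 and 1.44) to below 0 at 2000 nM (-0.66, -0.75 and -0.82).

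The transcript of DNMT1 itself did not separate the treatments. Its direct difference was 0.07 in MV411 (interval -0.11 to 0.24), 0.07 in THP1 (-0.08 to 0.23) and 0.02 in NOMO1 (-0.14 to 0.17). On day 4 in MV411 it was at 92.4 and 108 FPKM with GSK032 and 111 and 108 with GSK862. UHRF1 had direct differences of 0.23, 0.14 and -0.05, all uncalled. DNMT3A, a de novo methyltransferase, had -0.02, -0.07 and -0.04, and DNMT3B, the other, -0.03, -0.06 and -0.05.

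No gene was shown to differ between lines in its response to this change of treatment. The direct differences of MV411 and THP1 were compared over 16493 genes, those of MV411 and NOMO1 over 14894 and those of THP1 and NOMO1 over 15195, and 0 genes were called in each (0%). At an unadjusted p below 0.05 there were 1018, 1079 and 1381 genes (6.17%, 7.24% and 9.09%), from limma estimates with Satterthwaite degrees of freedom. Of the day 4 calls of the group-means fit, 29 genes were higher in both MV411 and THP1. They were 22.3% of the MV411 calls, beside 2.25% of all genes higher in THP1. Of the THP1 calls they were 5.56%, beside 0.591% of all genes higher in MV411. The lower calls shared 17 genes, 6.12% of those of MV411 and 27.4% of those of THP1. Over all genes, 0.267% were lower in THP1 and 1.26% in MV411. With no gene called in the comparisons of lines, the direct calls in MV411 and their lack in NOMO1 do not show a difference between lines. The day 4 differences of the group-means fit were not compared between lines, so for them this was not tested.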

How the data were processed

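RNA was extracted with RNeasy kits and sequenced as paired ends over 6 lanes, per the labels' protocols. Quantification used Salmon 0.12.0 on hg38, with DESeq2 (version not given in the sources used here), per the submitters' processing notes. Each line has its own table of FPKM, as deposited by the authors, with 59939 genes and 52 libraries, and tables of log2 fold changes that were not used. Gene names and places come from GENCODE 29 and matched 94.3% of identifiers. In the MV411 table the day 4 GSK862 columns carry no replicate number, so they were used as 2 unnumbered libraries of their group.

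Values were tested as log2(FPKM + 0.5) with limma 3.58.1 in R 4.3.3 (variance trend, two-sided, Benjamini-Hochberg over all genes of a line). The direct fit took 8 libraries with day as covariate and genes with FPKM of at least 1 in at least 2 of them. The group-means fit took 52 libraries and the same filter. A pseudocount of 0.5 understates the fold change of low genes. Both fits were run on simulated data with independent noise and the same effect on both days. Shared replicate effects and differences in library scale were not simulated. Library depth was estimated from the spacing of low FPKM values, of which 65.8% to 77.7% lay within 0.15 of a whole fragment (30% by chance), so no count test was run.

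Members and gene lists were chosen with earlier results of these data known. Named genes had a mean FPKM of at least 1. They were the 5 largest calls per line and direction, up to 4 called members of each of 32 lists by size, and the 3 largest day changes. DNMT1, DNMT3A, DNMT3B and UHRF1 were added. So were the 5 genes with the largest response to GSK032 on other days in the line where it was smallest. Alternatives varied the pseudocount, filter, scaling, fit, replicate block, GSK032 dose and each library.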

Additional observations from a re-analysis of the deposited data

Results flagged for a closer look

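In MV411, the difference between GSK862 and GSK032 changed from day 2 to day 4 in 41 genes (1 higher and 40 lower, limma group-means fit), a test of the change itself. Among them were the interferon genes IFI27 (-3.40 on the log2 scale, adjusted p = 0.0054), IFIT1 (-2.23), IFI44L (-2.16) and IFI44 (-2.11). The cancer-testis gene MAGEC1 changed by -0.86: it was at 0 and 0.0142 FPKM with GSK032 on day 2, and on day 4 at 1.35 and 0.996 with GSK032 and 0.482 and 0.341 with GSK862. MIR558 (-5.39) and RNU6-516P (-3.48) were also called, and both are shorter than a sequenced fragment, so their FPKM are uncertain. Leaving out 1 library at a time gave 21 to 66 genes. In THP1 the change was called in 2 genes, of which SLX1A (3.15) has a near-identical copy.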

How the results depend on the processing

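In MV411 the 8 lower calls became 0 with no filter, with no day covariate, with p-values adjusted over the 3 lines together and with the replicate block, 3 with equal FPKM sums or with a log2 size of at least 1, 4 with a mean FPKM of at least 5, and 14 (with 1 higher) without a variance trend, which gave 1 lower in NOMO1. All 8 stayed lower under each of these, where tested. The mean of both days in the group-means fit called 35 higher and 227 lower in MV411 and 441 and 66 in THP1. With a pseudocount of 0.1 the MV411 counts were 4 on day 2, 246 on day 4 and 17 for the change between days, and NOMO1 had 8 on day 2; with a pseudocount of 1, THP1 had 1 for the change and NOMO1 0 on day 2. With no filter, the change was called in 79 genes in MV411, 22 in THP1 and 2 in NOMO1, day 2 in 16 in THP1 and 17 in NOMO1, day 4 in 9 in NOMO1, and the difference between MV411 and NOMO1 in 2. With equal FPKM sums, THP1 had 0 calls on day 2 and 6 on day 4, NOMO1 0 on day 2; GSK862 against DMSO had 3377, 892 and 1565 calls in MV411, THP1 and NOMO1, and GSK032 against DMSO 2974 in THP1 and 1666 in NOMO1. Median-ratio scaling gave THP1 345 on day 4, of which 79.4% were higher. The MV411 median of the GSK032-responsive genes was -0.36 with equal sums, whose shift over all genes was -0.11, and -0.12 with a mean FPKM of at least 5. The causes were not tested.

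With 2 numbers per group and no label that ties them to a culture or day, the replicate numbers were not taken as pairs. Same-numbered libraries correlated at 0.04 to 0.39 over genes after removal of group means, and at 0.18 to 0.39 between the compounds on the same day. With the replicate block THP1 had 1275 calls on day 4, and no direct call arose in THP1 or NOMO1. In MV411 the block could be fitted only to the 4 libraries of day 2, where the median of the GSK032-responsive genes was -0.10.

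Against GSK032 at 2000 nM in place of 400 nM, 3574, 3813 and 2515 genes were called on day 4 in MV411, THP1 and NOMO1, and against 80 nM 2163 in NOMO1. Signs turned against 80 nM for the named genes below, but some of these differences were near 0 and not all were called. Against 80 nM in MV411, 24 of 34 germline genes were called higher, and 2 of 30 mitosis genes lower. Of 43 interferon genes there, 3 were higher and 1 lower. In THP1, 9 of 27 germline and 12 of 44 interferon genes were called higher, and 0 of 30 mitosis and 0 of 12 heat shock genes were called. In MV411 the differences were then 2.95 for DAZL, 3.09 for PAGE2, 1.52 for MAGEC2, 2.31 for CTAG2, 1.395 for IFI27, 0.072 for IFIT1, 0.38 for IFI44, 0.23 for IFI44L, 0.28 for CAMP and 1.65 for PEG3. They were -0.13 for CDCA7, -0.18 for AURKB, -0.19 for CENPA, -0.31 for CDK1, -0.27 for CDT1, -0.14 for MCM7, -0.44 for PHGDH and -0.30 for HIST1H1B. In THP1 they were 2.12 for MAEL, 1.13 for TDRD9, 0.82 for MX1, -0.092 for GTSF1, -0.32 for CDCA7, -0.20 for CDK1, -0.12 for TOP2A, -0.20 for RFC4, -0.44 for SCD, -0.22 for HSPD1, -0.23 for HSP90AB1, -0.062 for RPL27, -0.033 for ATP5F1B and -0.31 for SLC16A1.

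Leaving out 1 library at a time gave, for the direct contrast, 0 to 0 higher and 0 to 0 lower genes in MV411, 0 to 1 lower in THP1 and 0 to 2 lower in NOMO1. In the order MV411, THP1, NOMO1, day 2 calls spanned 13 to 24, 1 to 15 and 0 to 43, and day 4 calls 152 to 396, 41 to 612 and 1 to 14. The change between days ran from 21 to 66, 1 to 6 and 0 to 17, and each difference between lines from 0 to 1. In the same order, GSK862 against DMSO spanned 4142 to 5212, 2210 to 3114 and 2754 to 3698, and GSK032 against DMSO from 5966 to 7060, 4793 to 5792 and 2877 to 3807. The medians of the responsive genes ran from -0.27 to -0.18, -0.26 to -0.19 and -0.06 to -0.01, and the percent of intervals within 1 from 82.3 to 84.1, 84.2 to 84.8 and 85.2 to 86.7. Genes that did not reach 1 FPKM in at least 2 of the 8 libraries were not tested in the direct fit.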
